A study of Mus musculus with 12 samples.

Results

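The cornified envelope genes of the epidermal differentiation complex were followed across the skin libraries of the study. A member is a protein-coding mouse gene whose symbol begins with *Lce*, or with *Sprr* and a digit, or is *Flg*, *Flg2*, *Hrnr*, *Rptn*, *Tchh*, *Tchhl1*, *Crnn*, *Crct1*, *Lor*, *Ivl*, *Lelp1*, *Kprp* or *Prr9*. The rule found 49 members among the 52636 genes of the count table. All lie on chromosome 3 of GRCm38, between 92080271 and 93471980, a span of 1391.7 kb, with 24 on the plus strand and 25 on the minus strand. They comprise 14 *Lce1*, 6 *Lce3* and 1 *Lce6* gene, 2 *Sprr1*, 11 *Sprr2* and 2 other *Sprr* genes, 7 S100-fused genes (*Flg*, *Flg2*, *Hrnr*, *Rptn*, *Tchh*, *Tchhl1* and *Crnn*) and 6 others (*Lor*, *Ivl*, *Crct1*, *Kprp*, *Lelp1* and *Prr9*).

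Skin of C57BL/6 mice, given as 3 months old, was sequenced in 4 groups of 3 mice after 14 days of application to shaved dorsal skin. WT and KO mice received the vehicle, normal saline with HPMC (a cellulose suspending agent), and the groups labelled WT+ZnO NPs and KO+ZnO NPs received zinc oxide nanoparticles in that vehicle. The KO genotype, Cdc42-/- in the labels, carried both floxed *Cdc42* alleles and a Cre transgene driven by the keratin K5 promoter, so deletion is limited to cells that use or once used that promoter. WT mice lacked Cre and carried 1 or both floxed alleles. The comparisons ask how deletion of *Cdc42*, which the study took as its model of an impaired barrier, and ZnO NPs relate to the transcripts that build the barrier.

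The cornified envelope is a protein shell laid down beneath the plasma membrane of keratinocytes in the upper epidermis as they die and become corneocytes. Loricrin, involucrin, the small proline-rich proteins (*Sprr*) and the late cornified envelope proteins (*Lce*) are its building blocks, and transglutaminases cross-link them. Filaggrin and the other S100-fused proteins aggregate keratin filaments or join the envelope, and trichohyalin (*Tchh*) does so in the inner root sheath of the hair follicle. The genes are clustered and are switched on late in keratinocyte differentiation.

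The 12 libraries held 21076320 to 28867802 counts each. Levels are CPM, a library's counts brought to a common total after TMM scaling (factors of 0.898 to 1.12). *Cdc42* itself stood at 606 to 628 CPM in WT and 415 to 464 CPM in KO, but at 311 to 350.1 CPM in the samples marked WT+ZnO NPs and at 314 to 453 CPM in those labelled KO+ZnO NPs. In KO the difference from WT did not pass the test (-0.49 ± 0.15 on the log2 scale, adjusted p = 0.0653), and in WT+ZnO NPs it did (-0.92 ± 0.15, adjusted p = 0.000799). In the samples marked WT+ZnO NPs *Cdc42* thus lay below WT and below KO, which is at odds with that label. It does not separate the treated groups, which are called by their labels throughout. The reason was not tested, and *Cdc42* in bulk skin also comes from cells outside the reach of the deletion. Transcripts of 4 Y-linked genes summed to 215 to 245 CPM in all WT+ZnO NPs samples, in KO replicate 1 and in KO+ZnO NPs replicate 1, and to at most 0.05 CPM in the other 7 libraries. The study describes its KO mice as female, which these transcripts go against. No WT library carried them, so what they mark and the treatment cannot be told apart in the comparison of the samples marked WT+ZnO NPs with WT. A fit with a term for them takes that term only from KO and KO+ZnO NPs, where replicate 1 differs from replicates 2 and 3. Summed suprabasal keratins (*Krt1*, *Krt10*, *Krt2* and *Krt77*) were 4556 to 7276 CPM in WT, 6497 to 13690 in KO, 1038 to 1200 in WT+ZnO NPs and 1672 to 7233 in KO+ZnO NPs, while 5 basal epidermis markers summed to 4258 to 5991, 6583 to 10650, 6296 to 10860 and 9984 to 11920 CPM. *Krt2* was at or under 6.13 CPM in every library and went the other way, being called higher in WT+ZnO NPs against WT (3.92 ± 0.98, adjusted p = 0.00894). In bulk skin, fewer cells of a layer and less RNA per cell cannot be told apart.

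The promoters of the members are shown as a description of families that lie side by side, and their part in the changes of level was not tested. RefSeq windows of 300 bases (250 before and 50 after the start, GRCm38.p6) were matched for 45 of the 49 members, and motifs were searched on both strands. The AP-1 letters TGANTCA were in 17 of the 45 windows (37.8%), against 7.81% of 32851 windows of all genes. They were in 7 of 10 *Sprr2*, 2 of 2 *Sprr1* and 5 of 7 S100-fused windows and in those of *Lor*, *Ivl* and *Prr9*, but in 0 of 13 *Lce1* and 0 of 6 *Lce3* windows. The 3 *Sprr2* windows without them were those of *Sprr2a1*, *Sprr2a2* and *Sprr2a3*. The TATA box letters TATAAA were in 21 windows (46.7%, against 13.6% of all), among them 7 of 10 for *Sprr2* and 2 of 13 for *Lce1*. The letters AGATAA, known from factors of the *Gata3* family, were in 5 windows (11.1%, against 11.2%). The letters CCACACCC, known from KLF factors, were in 1, that of *Ivl* (2.22%, against 3.56%). The letters AACNGGTT, known from grainyhead-like factors, were in 1, that of *Rptn* (2.22%, against 2.09%). The stricter AACCGGTT, which is contained in AACNGGTT (0.146% of all windows), and the C/EBP letters TTGCGCAA (0.183%) were in 0 of the 45. The 200 bases before the RefSeq start are shown for the classical markers *Lor* and *Ivl*, for a *Sprr1*, a *Sprr2* and an *Lce1* gene whose values follow, and for *Crnn*, which took another course. Capitals mark the AP-1 and TATA box letters.
Lor (chr3:92083143-92083342, minus strand): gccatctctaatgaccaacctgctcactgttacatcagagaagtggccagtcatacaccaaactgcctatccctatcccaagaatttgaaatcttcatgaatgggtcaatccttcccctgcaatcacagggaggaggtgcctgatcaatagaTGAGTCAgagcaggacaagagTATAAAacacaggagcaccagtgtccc
Ivl (chr3:92573736-92573935, minus strand): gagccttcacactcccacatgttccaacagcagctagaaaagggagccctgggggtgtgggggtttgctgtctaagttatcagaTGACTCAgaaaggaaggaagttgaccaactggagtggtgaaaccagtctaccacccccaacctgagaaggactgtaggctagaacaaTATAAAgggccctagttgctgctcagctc
Sprr1b (chr3:92438780-92438979, minus strand): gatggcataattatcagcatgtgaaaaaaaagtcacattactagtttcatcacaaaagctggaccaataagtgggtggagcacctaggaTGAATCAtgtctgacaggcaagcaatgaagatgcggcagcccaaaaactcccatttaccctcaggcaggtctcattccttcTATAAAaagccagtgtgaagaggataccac
Sprr2d (chr3:92338940-92339139, plus strand): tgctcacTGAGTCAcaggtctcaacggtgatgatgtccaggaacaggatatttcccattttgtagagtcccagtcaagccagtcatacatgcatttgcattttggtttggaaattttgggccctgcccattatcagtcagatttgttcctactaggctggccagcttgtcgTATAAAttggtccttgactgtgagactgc
Lce1a1 (chr3:92648308-92648507, minus strand): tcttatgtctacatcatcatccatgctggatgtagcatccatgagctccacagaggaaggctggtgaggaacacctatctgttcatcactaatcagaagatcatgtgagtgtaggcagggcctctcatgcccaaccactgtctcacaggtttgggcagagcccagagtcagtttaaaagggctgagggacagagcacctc
Crnn (chr3:93144589-93144788, plus strand): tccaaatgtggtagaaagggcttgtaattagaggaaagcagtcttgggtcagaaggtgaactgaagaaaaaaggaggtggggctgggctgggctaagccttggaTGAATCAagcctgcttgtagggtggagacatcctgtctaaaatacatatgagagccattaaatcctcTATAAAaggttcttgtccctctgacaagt
The stretches of *Lor*, *Ivl*, *Sprr1b* and *Crnn* hold both motifs within 116 bases of the start, that of *Sprr2d* has its AP-1 letters 193 bases and its TATA box 29 bases before it, and that of *Lce1a1* has neither. A match describes the letters and not binding.

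In WT skin the level per length, in CPM per kilobase of annotated exon, was highest for *Lor* at 823. *Crct1* (cysteine-rich C-terminal 1) followed at 529, *Sprr4* at 525, *Lce1m* at 406, *Sprr1a* at 389 and *Lce1a1* at 278. The annotated exons of *Sprr4* hold only 231 bases, against 806 for *Sprr1a*, so its place on this scale depends on that annotation. The long S100-fused genes were lower on this scale, with *Flg2* at 16.1 CPM per kilobase, while *Ivl* stood at 57.7, *Lce3c* at 28.7 and *Sprr2h* at 21. *Tchh*, *Tchhl1*, *Crnn* and *Prr9* were at or under 0.942 CPM per kilobase in WT. The 49 members took up 0.345% to 0.750% of all counts in WT, 0.723% to 1.19% in KO, 0.0842% to 0.241% in WT+ZnO NPs and 0.137% to 1.07% in KO+ZnO NPs.

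**Figure D1:**
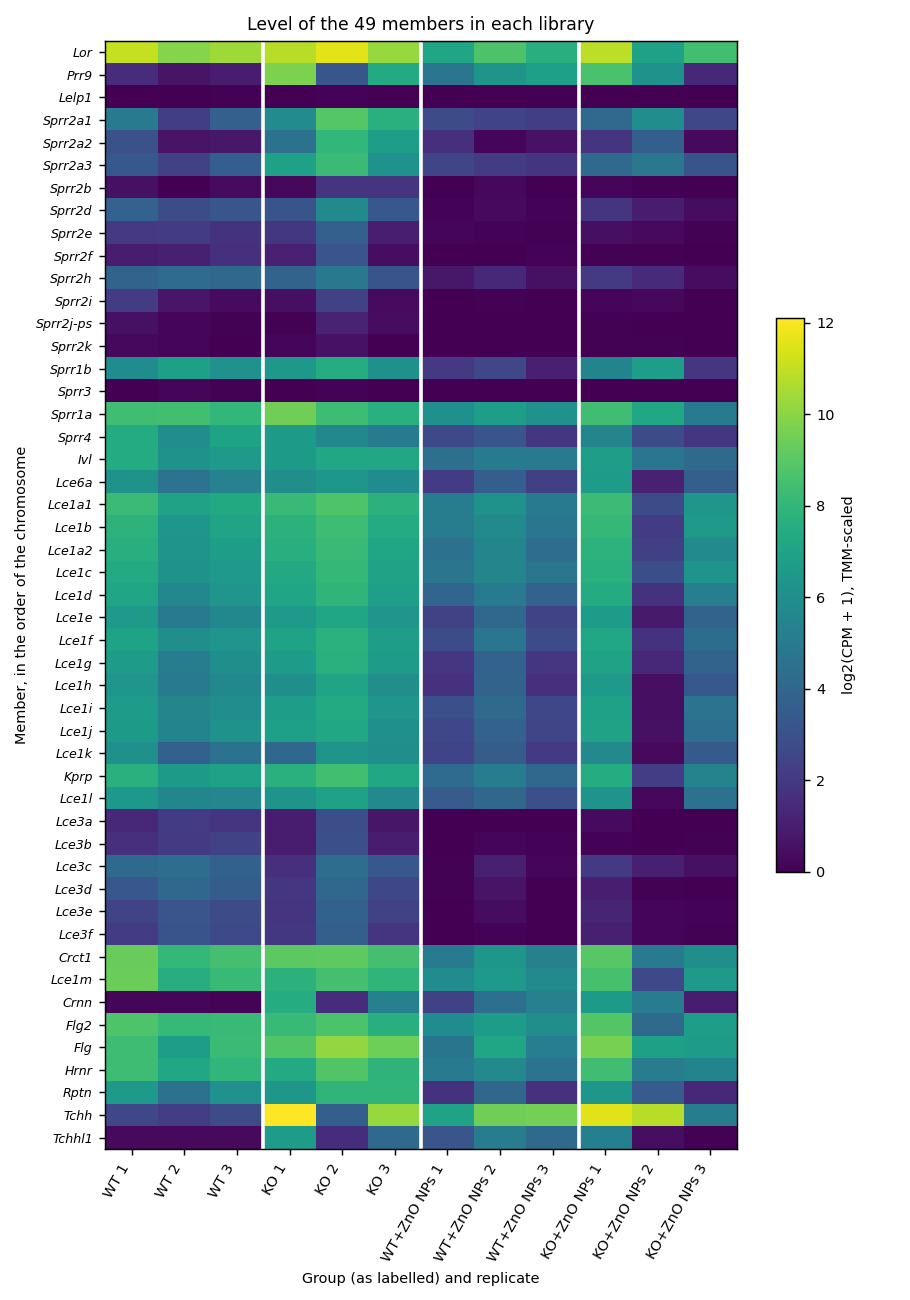
Levels of the 49 members (one line of cells each, in chromosomal order) in the 12 libraries (by labelled group and replicate) as log2(CPM + 1). The samples marked WT+ZnO NPs and KO+ZnO NPs replicates 2 and 3 are low over the *Lce* and most *Sprr* genes, KO+ZnO NPs replicate 1 is near the KO libraries over the *Lce1* genes, and *Tchh*, *Crnn*, *Prr9* and *Tchhl1* follow a pattern of their own.

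Of the 49 members, 45 passed the filter on low counts and were tested. The other 4 stayed low in every library. *Lelp1* was at most 0.080 CPM, *Sprr3* (esophagin) at most 0.105, *Sprr2k* at most 0.522 and *Sprr2j-ps* at most 1.245 CPM. *Sprr3* had counts only in WT replicates 2 and 3 and KO replicate 2. Among the members, 13 share over 20% of their 50-base stretches with other genes and 18 share none. The share was 96.3% for *Sprr2a1*, 96.5% for *Sprr2a2* and 61.1% for *Sprr2a3*, and *Sprr2a1* and *Sprr2a2* also have overlapping exons, so how reads divide among these 3 copies is uncertain. It was 35.7% to 49.3% for *Lce3c* to *Lce3f*, and 0% for *Lor*, *Crct1*, *Kprp*, *Lce1m*, *Sprr1a*, *Sprr1b*, *Sprr4*, *Crnn* and *Tchh*.

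Deletion of *Cdc42* alone (KO against WT) went with higher levels of a small set of members and with no called fall. Of the 45 tested, 6 were called higher (13.3%) and 0 lower, by edgeR's quasi-likelihood test at an adjusted p below 0.05, against 4.61% of all 18822 genes called higher and 8.18% called in either direction. Changes below are log2 fold changes ± standard error (SE). The 6 were the 3 *Sprr2a* copies, *Tchh*, *Crnn* and *Prr9*. The KO libraries lay entirely above WT in 9 of the 45 members, against 18.6% of all genes, a share near the background.

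*Sprr2a3*, of a small proline-rich family known to be induced in stressed epithelia, was at 8.98, 4.28 and 11.3 CPM in WT and at 121, 309 and 71.9 CPM in KO. All KO libraries lay above all WT libraries, with a change of 4.35 ± 0.65 (adjusted p = 0.00415). *Sprr2a1* was at 30.7, 3.76 and 12.3 CPM in WT and at 55.8, 480.3 and 208 CPM in KO, a change of 3.99 ± 1.05 (adjusted p = 0.044). *Sprr2a2* was at 7.01, 0.562 and 0.722 CPM in WT and at 22.8, 258 and 107 CPM in KO and changed by 5.56 ± 1.5 (adjusted p = 0.0469). Summed, the 3 copies made 8.60 to 46.7 CPM in WT and 199 to 1048 CPM in KO, which do not overlap. The other 6 tested *Sprr2* genes were not called, with log2 fold changes from 0.03 (*Sprr2h*) to 2.83 (*Sprr2b*). Keratins of activated epidermis stood higher alongside, since *Krt6a*, *Krt6b*, *Krt16* and *Krt17* summed to 945 to 1506 CPM in WT and 3460.0 to 6385 CPM in KO, with 1 of the 4 called. Fibroblast markers summed to 6730.0 to 13390.0 CPM in WT and 22330.0 to 36210.0 CPM in KO, leukocyte markers to 478 to 530.0 and 159 to 411 CPM, and adipocyte markers to 5314 to 7014 and 2301 to 4262 CPM, none of these 3 lists having a called member. Skeletal muscle markers summed to 3935 to 5580.0 CPM in WT and 946 to 3314 CPM in KO, with 1 of 5 called lower (*Myh4*). The part of these markers in the result was not tested.

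*Lor*, *Ivl* and *Flg* were not called in KO against WT. The study stained their proteins and reported less of each in KO epidermis, which is protein in the epidermis and not RNA of bulk skin. *Lor*, a major protein of the envelope, was at 2085, 972 and 1337 CPM in WT and at 1787, 3103 and 1205 CPM in KO, and its groups overlap (0.47 ± 0.82, adjusted p = 0.767). *Ivl*, an early scaffold of the envelope, was at 172, 70.4 and 90.1 CPM in WT and at 95, 150.4 and 152 CPM in KO, again overlapping (0.25 ± 0.58, adjusted p = 0.828). *Flg*, the precursor of filaggrin, was at 329.9, 107 and 300.04 CPM in WT and at 455, 1141 and 691 CPM in KO. All KO libraries were above WT for *Flg*, yet the change of 1.63 ± 0.87 did not pass (adjusted p = 0.267). It passed with DESeq2 on these 2 groups alone (adjusted p = 0.0024), which called 9 members and 4522 genes in all. The 14 *Lce1* genes had log2 fold changes from -0.46 to 1.03 and the 6 *Lce3* genes from -0.70 to 0.15, with 0 called. *Crct1* was at 539, 553 and 371 CPM in KO, *Lce1m* at 222, 376 and 239 CPM, *Lce1a1* at 282, 442 and 221 CPM and *Lce6a* at 62.6, 82.7 and 58.7 CPM. The KO libraries of these 4 genes overlap WT, whose values follow in the comparison with ZnO NPs. *Sprr1a* was at 711, 329 and 204 CPM, *Sprr1b* at 86.9, 177 and 66.8 CPM and *Sprr4* at 96.8, 48.8 and 32.1 CPM in KO, again overlapping WT. The median over the 45 tested members was 0.70, beside 0.01 over all genes.

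The number called in KO against WT depended on single libraries. It was 2 without WT replicate 1 or without KO replicate 1, 1 without WT replicate 2, WT replicate 3 or KO replicate 3, and 3 without WT+ZnO NPs replicate 3, which enters through the shared estimate of the spread. In these fits 377 to 1191 genes in all were called, in place of 1540. *Sprr2a3* kept its call in all 21 alternatives and *Sprr2a1* in 12 of 21, with an adjusted p of up to 0.15 (without WT replicate 2). The call of *Sprr2a2* was lost without WT replicate 2 or WT replicate 3. So it was without any 1 of the KO or WT+ZnO NPs replicates or KO+ZnO NPs replicate 1.

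**Figure D2:**
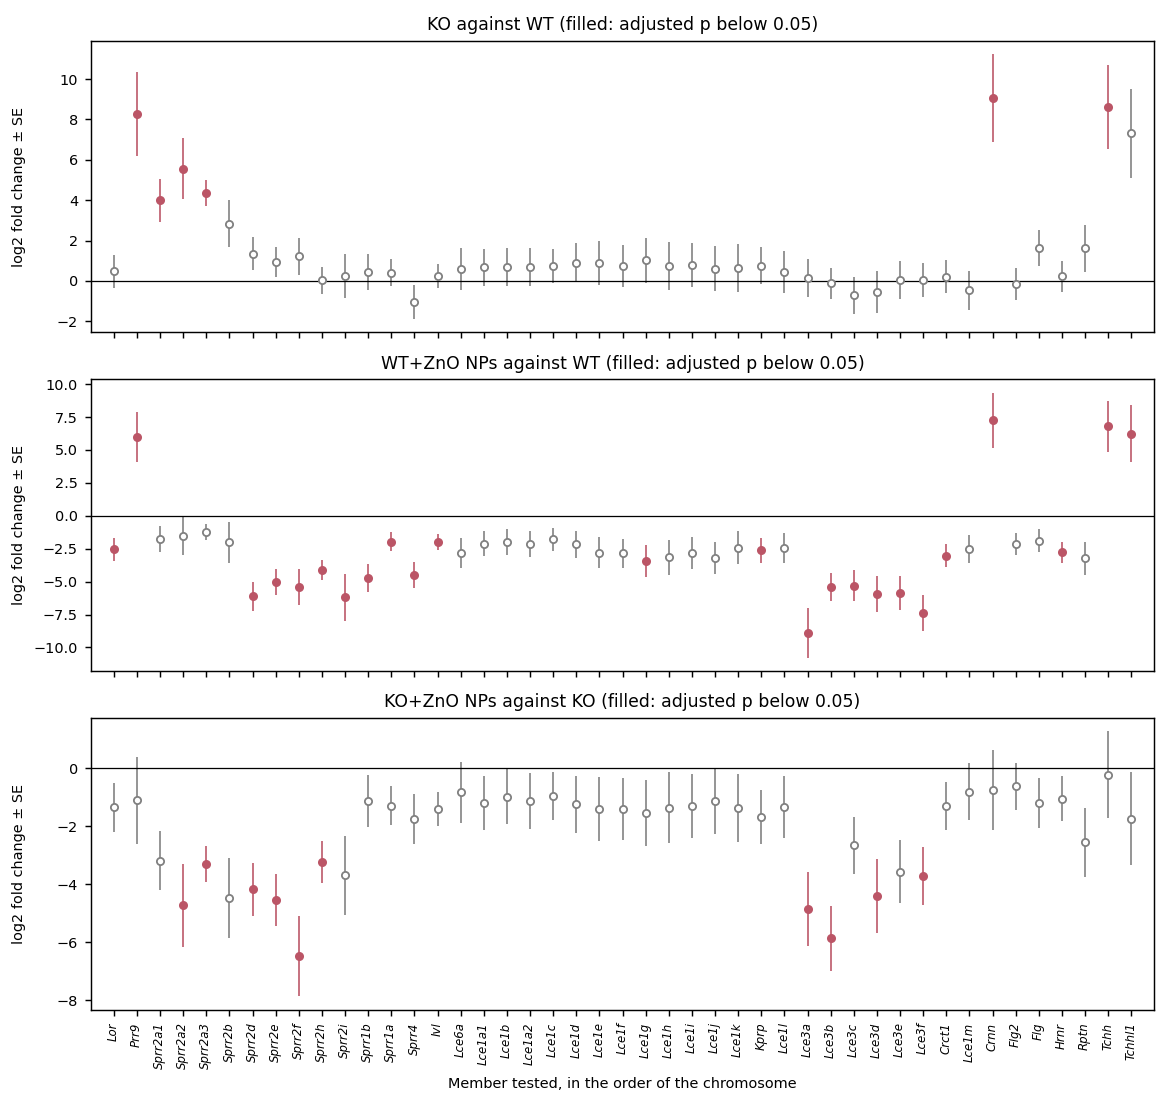
Log2 fold change ± SE of each of the 45 tested members (in chromosomal order) in KO against WT, WT+ZnO NPs against WT and KO+ZnO NPs against KO, with filled points for an adjusted p below 0.05. In KO against WT the *Sprr2a* copies, *Tchh*, *Crnn*, *Prr9* and *Tchhl1* stand above the rest, in WT+ZnO NPs against WT 41 of 45 values are below 0, and in KO+ZnO NPs against KO all 45 are. The value of *Lce3a* in WT+ZnO NPs against WT rests on a group with 0 counts and is not a bound.

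In the samples marked WT+ZnO NPs most members were lower than in WT. Of the 45 tested, 20 were called lower (44.4%, against 22.1% of all genes) and 4 higher (8.89%, against 20.8%), where 43.0% of all genes were called in some direction. Members at or near 0 counts in WT+ZnO NPs, such as *Lce3a* and *Sprr2i*, passed the filter on low counts through the groups where they were higher. With at least 10 counts required in every library 9 of 25 members were called lower and 2 higher. No *Lce3* gene passed that filter, and of the *Sprr2* genes only *Sprr2a1* and *Sprr2a3* did, so it does not test the others. The treated libraries lay entirely below WT in 36 members (80.0%, against 29.3% of all genes). The median log2 fold change was -2.79, beside 0.06 over all genes. Summed without *Tchh*, *Tchhl1*, *Crnn* and *Prr9*, the other 45 of the 49 members made 3493 to 7487 CPM in WT and 646 to 1480.0 CPM in WT+ZnO NPs. As given above, all 3 treated libraries also carried Y-linked transcripts and had a lower sum of suprabasal keratins. Leukocyte markers were called lower in 3 of 4 cases, their sum being 478 to 530.0 CPM in WT and 27.7 to 57.4 CPM in WT+ZnO NPs. Of 5 adipocyte markers 3 were called lower, with sums of 5314 to 7014 CPM in WT and 911 to 2132 CPM in WT+ZnO NPs. Of 5 fibroblast markers *Dcn* and *Pdgfra* were called lower and *Col1a1* higher, of 5 sebaceous gland markers *Elovl3* was called higher, and of 5 basal markers *Krt5* and *Krt15* were called higher. Of the 4 keratins of activated epidermis *Krt6b* was called lower (-5.88 ± 1.38, adjusted p = 0.00643) and *Krt17* higher (2.04 ± 0.32, adjusted p = 0.000735). The part of the keratins and these other markers in these changes was not tested.

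*Lor* was at 139, 419.8 and 189.9 CPM in the samples marked WT+ZnO NPs, all below the WT range of 972 to 2085 CPM (-2.55 ± 0.87, adjusted p = 0.0351). *Ivl* was at 21.1, 31 and 30.5 CPM, below the WT range of 70.4 to 172 (-2.01 ± 0.61, adjusted p = 0.0214). *Flg* was at 25.5, 137 and 35.6 CPM, and replicate 2 overlaps WT (-1.90 ± 0.88, adjusted p = 0.104). The transcripts of loricrin and involucrin were thus called lower, and that of filaggrin was not. *Flg* was called without WT+ZnO NPs replicate 2 (-3.01, adjusted p = 0.0338) or without KO+ZnO NPs replicate 1 (0.0393). *Lor* was not called without WT replicate 1 (adjusted p = 0.0926), WT replicate 3 (0.0614), WT+ZnO NPs replicate 1 (0.106) or WT+ZnO NPs replicate 3 (0.11), and *Ivl* not without WT replicate 1 (0.0808), WT+ZnO NPs replicate 1 (0.0699) or WT+ZnO NPs replicate 3 (0.0583).

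*Crct1*, *Kprp* (keratinocyte proline-rich protein) and *Hrnr* (hornerin) were also called lower. *Crct1* was at 625, 265 and 368 CPM in WT and at 32, 84.8 and 38 CPM in WT+ZnO NPs (-3.02 ± 0.88, adjusted p = 0.0185). *Hrnr* changed by -2.79 ± 0.82 (adjusted p = 0.0194) and *Kprp* by -2.62 ± 0.96 (adjusted p = 0.0475). *Flg2* (-2.17 ± 0.84, adjusted p = 0.0583) and *Rptn*, repetin (-3.24 ± 1.25, adjusted p = 0.0565), lay below WT in every treated library and did not pass. The call of *Kprp* was lost with scaling by library size alone and without any 1 of the WT, WT+ZnO NPs or KO replicates or KO+ZnO NPs replicate 3, and that of *Hrnr* without WT replicate 1, WT+ZnO NPs replicate 1 or WT+ZnO NPs replicate 3. *Crct1* was not called without WT replicate 1 (0.0544), WT+ZnO NPs replicate 1 (0.0639) or WT+ZnO NPs replicate 3 (0.0706).

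All 6 *Lce3* genes, known as the late cornified envelope genes of injured and inflamed skin, were called lower. *Lce3c* was at 17.2, 18.9 and 12.6 CPM in WT and at 0.040, 1.1 and 0.119 CPM in WT+ZnO NPs (-5.30 ± 1.15, adjusted p = 0.00424). *Lce3d* was at 8.86, 15.4 and 11 CPM in WT and at 0.040, 0.548 and 0 CPM (-5.94 ± 1.38, adjusted p = 0.00612). The groups of both are far apart, and *Lce3c*, *Lce3d* and *Lce3f* kept their calls in all 20 alternatives in which they were tested. *Lce3f* was at 3.44, 7.83 and 5.4 CPM in WT and at 0, 0.091 and 0 CPM, which is 432 counts over WT and 2 over the treated libraries, a ratio of 206 with a 95% counting interval of 56.6 to 1703. *Lce3b* was at 2.1, 3.23 and 4.17 CPM in WT and at 0, 0.137 and 0.079 CPM (-5.40 ± 1.05, adjusted p = 0.00241), and it was not called with Y-linked transcripts as a term (0.0844). *Lce3a*, at 36, 96 and 60 counts in WT and 0 in each treated library, was at least 59.6-fold lower against a floor of 3 counts over the group. The median of the 6 was -5.91, or -5.89 with *Lce3a* at that bound. Intervals and floors of this kind cover counting error only.

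The 14 *Lce1* genes and *Lce6a*, late envelope genes of normal skin, lay below WT in every treated library but mostly missed the threshold. *Lce1m* was at 676, 184 and 295 CPM in WT and at 57.2, 91 and 52.2 CPM in WT+ZnO NPs (-2.53 ± 1.03, adjusted p = 0.0695). *Lce1a1* was at 299, 125 and 164 CPM in WT and at 34.5, 70.0 and 31.3 CPM (-2.12 ± 0.96, adjusted p = 0.0977). *Lce6a* was at 70.6, 23.6 and 40.8 CPM in WT and at 3.48, 11.2 and 3.96 CPM (-2.86 ± 1.13, adjusted p = 0.0628). Over the 14 *Lce1* genes the log2 fold changes ran from -3.44 to -1.80 with a median of -2.49, and only *Lce1g* was called (adjusted p = 0.0428). That call was lost without any 1 of the WT or KO replicates, WT+ZnO NPs replicate 1 or WT+ZnO NPs replicate 3, whereas the fits on these 2 groups alone, by edgeR and by DESeq2, called all 14 *Lce1* genes lower. The number of members called in either direction was 37, in place of 24, without KO+ZnO NPs replicate 1 or without KO+ZnO NPs replicate 2, and it was 12 without WT replicate 1 and 14 without WT+ZnO NPs replicate 3. Genes called in all were 8290, 9095, 6510 and 5942 in these fits, in that order, in place of 8085. On these 2 groups alone 39 members were called by edgeR and 43 by DESeq2, where 8740 and 9300 genes in all were. With Y-linked transcripts as a term 21 members were called lower, in place of 20, *Lce3a*, *Lce3b*, *Sprr2f* and *Sprr2i* having lost the call and *Flg2*, *Lce1e*, *Lce1f*, *Lce1j* and *Lce6a* having gained it.

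Among the *Sprr* genes, *Sprr1b* was at 58.7, 117 and 68.7 CPM in WT and at 3.16, 4.98 and 1.11 CPM in WT+ZnO NPs (-4.73 ± 1.06, adjusted p = 0.00501). *Sprr4* was at 176, 60.2 and 127 CPM in WT and at 5.36, 8.22 and 2.73 CPM (-4.48 ± 0.99, adjusted p = 0.0046). Both kept their calls in all 21 alternatives. *Sprr1a* was at 334, 346 and 259.8 CPM in WT and at 66.1, 107 and 68.3 CPM (-1.96 ± 0.70, adjusted p = 0.042). Its groups do not overlap either, but its call was lost without any 1 of the 6 libraries compared, KO replicate 2 or KO+ZnO NPs replicate 2, with adjusted p from 0.0548 to 0.12.

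*Sprr2d* was at 13.1, 5.97 and 8.5 CPM in WT and at 0.080, 0.228 and 0.079 CPM in WT+ZnO NPs (-6.13 ± 1.10, adjusted p = 0.00152). *Sprr2h* was at 13.3, 18.1 and 16.1 CPM and at 0.72, 1.51 and 0.475 CPM (-4.14 ± 0.76, adjusted p = 0.0017). *Sprr2e* was at 2.98, 3.26 and 2.38 CPM and at 0.12, 0.091 and 0.040 CPM (-5.02 ± 1.00, adjusted p = 0.00266). All treated libraries lay far below WT for these 3 genes, whose calls were kept in all 20 alternatives in which they were tested. *Sprr2f* was at 0.923, 1.12 and 2.08 CPM in WT and at 0, 0 and 0.079 CPM, which is 103 and 2 counts (ratio 49, 13.2 to 410.2), and *Sprr2i* held 78, 19 and 7 counts in WT and 0, 1 and 0 in WT+ZnO NPs. The call of *Sprr2i* was lost without WT replicate 1, WT+ZnO NPs replicate 1 or WT+ZnO NPs replicate 3, by edgeR on these 2 groups alone, and with a term for Y-linked transcripts. *Sprr2f* was not called with Y-linked transcripts as a term (adjusted p = 0.188). The 3 *Sprr2a* copies, which rose in KO, were not called here and overlapped WT, with *Sprr2a1* at 5.92, 4.34 and 3.68 CPM and *Sprr2a3* at 4.84, 3.29 and 2.53 CPM.

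**Figure D3:**
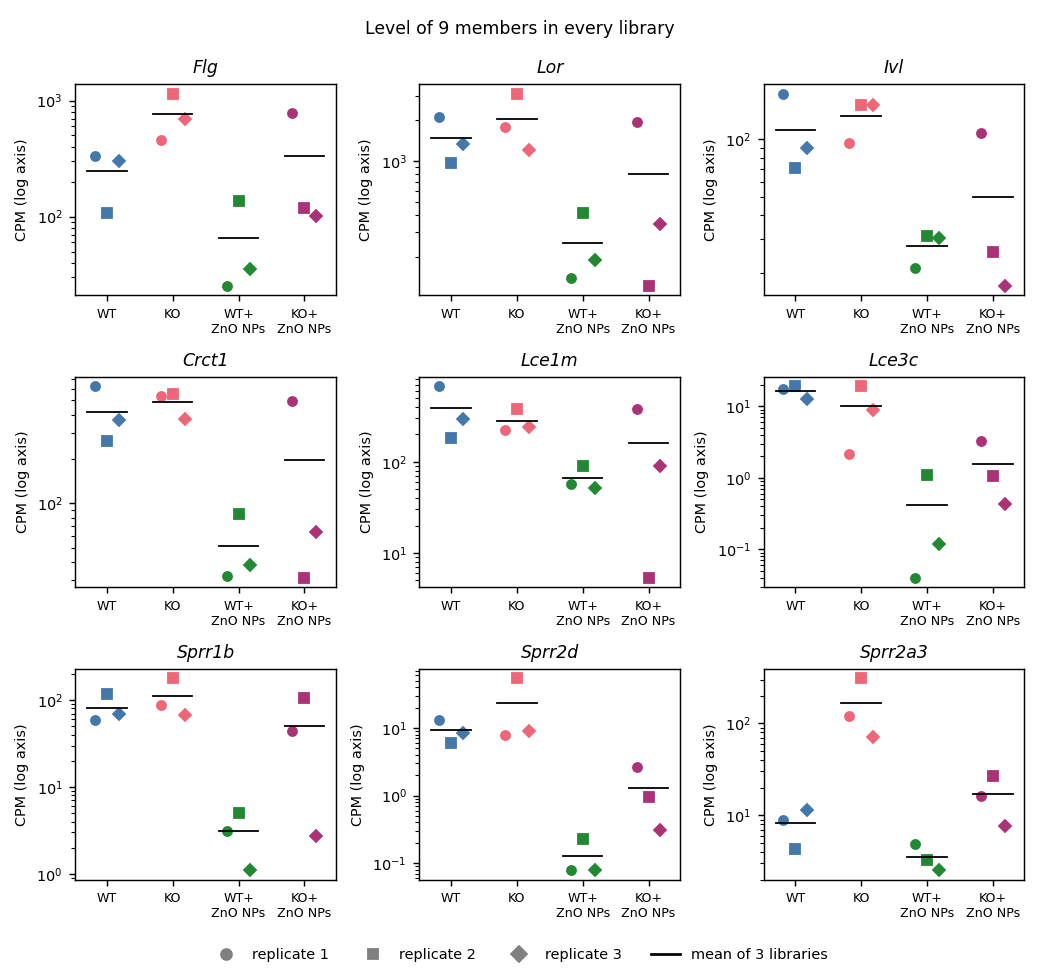
CPM (log axis) of *Flg*, *Lor*, *Ivl*, *Crct1*, *Lce1m*, *Lce3c*, *Sprr1b*, *Sprr2d* and *Sprr2a3* in each library of the 4 labelled groups, with a marker for each replicate and a line for the mean of 3. The WT+ZnO NPs points lie below all WT points in every panel but those of *Flg* and *Sprr2a3*, and KO+ZnO NPs replicate 1 lies near the KO libraries for *Lor*, *Ivl*, *Crct1* and *Lce1m*.

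In the samples marked KO+ZnO NPs against KO, the called falls were of *Sprr2* and *Lce3* genes. Of the 45 tested, 10 were called lower (22.2%, against 8.09% of all genes) and 0 higher, where 14.7% of all genes were called. Several of the 10 passed the filter on low counts through the groups where they were high, such as *Lce3a* with 6, 0 and 0 counts in KO+ZnO NPs. With at least 10 counts required in every library 2 of 25 members were called, *Sprr2a1* and *Sprr2a3*. Of the 10, *Sprr2a3* alone passed that stricter filter. The treated libraries lay entirely below KO in 13 members (28.9%, against 17.7% of all genes), and the log2 fold change was below 0 for all 45, with a median of -1.39 beside 0.01 over all genes. The 10 were *Sprr2a2*, *Sprr2a3*, *Sprr2d*, *Sprr2e*, *Sprr2f*, *Sprr2h*, *Lce3a*, *Lce3b*, *Lce3d* and *Lce3f*. The family medians were -4.16 for *Sprr2*, -4.06 for *Lce3* and -1.27 for *Lce1*. Leukocyte markers moved alongside, as all 4 (*Cd68*, *Ptprc*, *Itgam* and *Cd3e*) were called lower and summed to 159 to 411 CPM in KO and 52.2 to 74.5 CPM in KO+ZnO NPs, and in the same comparison the sebaceous gland markers *Elovl3*, *Awat1* and *Mc5r* (3 of 5) and the muscle marker *Myl1* (1 of 5) were called higher and the fibroblast marker *Pdgfra* (1 of 5) lower. The part of these markers in the result was not tested. With the replicate number as a block, 8 were called, without *Lce3a* and *Lce3d* (adjusted p = 0.0635). With Y-linked transcripts as a term 8 were called, without *Lce3a*, *Lce3d* and *Sprr2a2* and with *Sprr4*.

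*Sprr2a3* was at 16.4, 26.9 and 7.71 CPM in KO+ZnO NPs, all below the KO range of 71.9 to 309 CPM (-3.30 ± 0.62, adjusted p = 0.011). *Sprr2d* was at 7.78, 54 and 8.94 CPM in KO and at 2.66, 0.957 and 0.305 CPM in KO+ZnO NPs (-4.16 ± 0.92, adjusted p = 0.0175). *Sprr2e* was at 2.94, 12.3 and 1.06 CPM in KO and at 0.393, 0.252 and 0.044 CPM (-4.54 ± 0.91, adjusted p = 0.0134). The groups of these 3 genes do not overlap, and KO replicate 2 was the highest library for each. *Sprr2h* was at 13.3, 27.4 and 7.71 CPM in KO and at 3.1, 1.76 and 0.305 CPM (-3.22 ± 0.72, adjusted p = 0.0187). *Sprr2f* was at 1.15, 8.07 and 0.352 CPM in KO and at 0.044, 0.050 and 0 CPM, which is 236 and 2 counts (ratio 109, 29.9 to 906). *Sprr2a1*, at 16.7, 60.6 and 4.96 CPM, overlapped KO and missed the threshold (-3.18 ± 1.02, adjusted p = 0.0587).

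*Lce3b* was at 0.978, 6.87 and 0.969 CPM in KO and at 0.087, 0 and 0.044 CPM in KO+ZnO NPs, which is 216 and 3 counts (ratio 66.5, 22.5 to 325). *Lce3f* was at 2.85, 11.7 and 2.69 CPM in KO and at 1.09, 0.151 and 0.044 CPM (-3.71 ± 0.99, adjusted p = 0.0333). *Lce3d* was at 2.77, 16 and 5.24 CPM in KO and at 1.05, 0.050 and 0 CPM (-4.41 ± 1.27, adjusted p = 0.042). For these 3 *Lce3* genes too, KO replicate 2 was the highest KO library and no treated library reached KO. Their calls were kept in 19 of 21 alternatives for *Lce3b*, in 14 of 21 for *Lce3f* and in 9 of 21 for *Lce3d*. *Lce3c* was at 2.17, 19.1 and 8.76 CPM in KO and at 3.23, 1.06 and 0.435 CPM, which overlap (-2.66 ± 1.00, adjusted p = 0.0923).

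The number called fell to 3 without KO replicate 2, to 5 without KO+ZnO NPs replicate 2 and to 6 without KO replicate 3, KO+ZnO NPs replicate 3 or WT replicate 3. Genes called in all were then 451 to 2131, in place of 2759. *Lce3b*, *Sprr2a3* and *Sprr2e* were the 3 called without KO replicate 2, where the adjusted p was 0.0672 for *Sprr2d* and 0.137 for *Lce3d*. By edgeR on these groups alone 0 members were called, where 571 genes in all were. DESeq2 called 15 members on all libraries and 15 on these groups alone, where 4236 and 2840 genes in all were. With only the replicates that lack Y-linked transcripts, replicates 2 and 3 of each group, edgeR called 0 members and 0 genes in all. The log2 fold changes of *Lce3b*, *Lce3d* and *Lce3f* were then -7.10, -8.52 and -6.17. Those of *Sprr2a3*, *Sprr2d*, *Sprr2e* and *Sprr2h* were -3.48, -5.66, -5.50 and -4.11, each below its value with all replicates.

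The remaining members varied widely among the 3 samples marked KO+ZnO NPs. *Lor* was at 1924, 123 and 347 CPM, so that replicate 1 lay within the KO range and replicates 2 and 3 below it (-1.35 ± 0.83, adjusted p = 0.286). *Ivl* was at 108, 25.6 and 17.2 CPM (-1.40 ± 0.59, adjusted p = 0.13) and *Flg* at 786, 118 and 101 CPM (-1.19 ± 0.86, adjusted p = 0.366), with replicate 1 again above the others. Without replicate 1, *Lor* was called at -3.11 (adjusted p = 0.0195), *Ivl* at -2.63 (0.00879) and *Flg* at -2.80 (0.0408), and 25 members and 3195 genes in all were called. *Crct1* was at 497, 31.2 and 64.3 CPM, *Lce1m* at 384, 5.34 and 89.5 CPM, *Lce1a1* at 318, 5.75 and 85 CPM and *Lce6a* at 102, 1.16 and 11.8 CPM, against KO ranges of 371 to 553, 222 to 376, 221 to 442 and 58.7 to 82.7 CPM. The 14 *Lce1* genes together made 2421, 33.8 and 559 CPM in replicates 1, 2 and 3, against 1636 to 3147 CPM in KO. *Sprr1b* had another order, at 43.7, 104 and 2.74 CPM against 66.8 to 177 CPM in KO (-1.13 ± 0.90, adjusted p = 0.408). *Sprr1a* was at 335, 147 and 29.4 CPM and *Sprr4* at 44.2, 5.9 and 2.83 CPM, against KO ranges of 204 to 711 and 32.1 to 96.8 CPM.

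Since the suprabasal keratins also differed, each family was set against the summed *Krt1* and *Krt10* of its own library, as CPM per 100 CPM of these keratins, as a description without a test. For *Lce1* this ratio was 31.4 to 52.8 in WT and 27.2 to 56.8 in WT+ZnO NPs, and for *Sprr1* it was 8.42 to 16.4 and 8.27 to 13.8. Both overlap. The *Sprr1* sum is mostly *Sprr1a*, with a mean of 313 CPM in WT against 81.6 CPM for *Sprr1b*, and does not speak for *Sprr1b*. The log2 fold change of *Sprr1b* was -4.73, against -2.31 for *Krt10* and -2.12 for *Krt1*. For *Lce3* the ratio was 0.807 to 2.01 in WT and 0.00955 to 0.271 in WT+ZnO NPs, so the *Lce3* genes were lower than WT also relative to these keratins. The same held for the 8 *Sprr2* genes other than the *Sprr2a* copies (0.744 to 1.03 and 0.101 to 0.254) and for *Sprr3* and *Sprr4* summed (2.13 to 3.79 and 0.411 to 1.02). For *Lce3* the KO+ZnO NPs libraries, at 0.0332 to 0.116, also lay below KO at 0.230 to 0.615. In KO the *Sprr2a* copies stood at 3.72 to 8.87, above 0.303 to 1.0 in WT. On the same scale KO lay below WT for *Lce3*, and for *Sprr3* and *Sprr4* summed (0.414 to 1.81). KO+ZnO NPs replicate 2 stood alone with an *Lce1* ratio of 0.793, where replicates 1 and 3 had 39.6 and 44.1 and KO had 26.7 to 35.7. In that library *Krt1* was at 2420.0 CPM and *Krt10* at 1837 CPM, while *Lce1l* was at 0.202, *Lce1i* at 0.403 and *Kprp* at 3.58 CPM. Adipocyte markers summed to 1063 CPM in that library and to 5335 and 5531 CPM in replicates 1 and 3, and sebaceous gland markers to 1966 CPM and to 9524 and 11910.0 CPM.

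**Figure D4:**
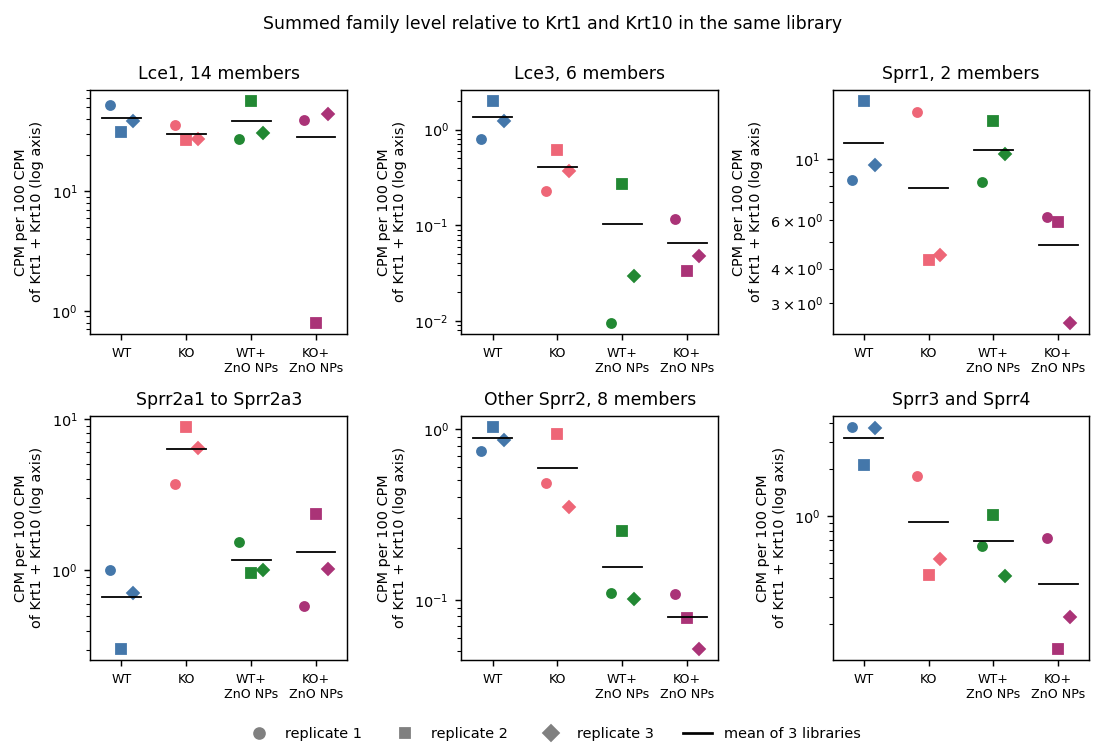
Summed CPM of 6 sets of members per 100 CPM of *Krt1* and *Krt10* in the same library (log axis), by labelled group, with a marker for each replicate. The WT and WT+ZnO NPs points overlap for *Lce1* and *Sprr1* and separate for *Lce3*, for the *Sprr2* genes other than the *Sprr2a* copies, and for *Sprr3* and *Sprr4*. KO+ZnO NPs replicate 2 is far below every other library for *Lce1*.

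*Tchh*, *Tchhl1* (a relative of trichohyalin), *Crnn* (cornulin) and *Prr9* (a proline-rich protein) were grouped after their values were seen. *Tchh* was at 4.95, 3.58 and 5.82 CPM in WT, at 4415, 11.6 and 1207 in KO, at 127, 711 and 764 in WT+ZnO NPs and at 2983, 1809.8 and 33.7 CPM in KO+ZnO NPs. *Crnn* was at 0.126, 0.175 and 0.085 CPM in WT, at 178, 1.93 and 37.2 in KO, at 4.32, 20.2 and 37.3 in WT+ZnO NPs and at 96.4, 32.5 and 0.915 CPM in KO+ZnO NPs. *Prr9* was at 1.89, 0.562 and 0.892 CPM in WT, at 837, 8.4 and 167 in KO, at 25.9, 75 and 112 in WT+ZnO NPs and at 397, 72.1 and 1.66 CPM in KO+ZnO NPs. KO replicate 1 was the highest library for each of these genes and KO replicate 2 the lowest of the KO libraries, and WT lay below every library of KO and WT+ZnO NPs.

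In KO against WT the change was 8.62 ± 2.10 for *Tchh* (adjusted p = 0.0335), 9.05 ± 2.19 for *Crnn* (0.0328) and 8.25 ± 2.08 for *Prr9* (0.0379), and 7.32 ± 2.21 for *Tchhl1*, which did not pass (0.0664). In WT+ZnO NPs against WT, which shares the WT libraries, it was 6.80 ± 1.94 for *Tchh* (adjusted p = 0.0166), 7.24 ± 2.11 for *Crnn* (0.0184), 6.00 ± 1.91 for *Prr9* (0.027) and 6.25 ± 2.15 for *Tchhl1* (0.0368). The calls of *Tchh*, *Crnn* and *Prr9* in KO against WT were lost without any 1 of WT replicates 1 to 3, KO replicate 1 or KO replicate 3, and for *Prr9* also without WT+ZnO NPs replicate 3, with adjusted p from 0.053 to 0.152. Those in WT+ZnO NPs against WT were lost without any 1 of the WT replicates, and for *Prr9* also without WT+ZnO NPs replicate 3, and those of these 3 genes then had adjusted p from 0.054 to 0.0904. The call of *Tchhl1* was lost without any 1 of the WT replicates, WT+ZnO NPs replicate 2 or WT+ZnO NPs replicate 3. With Y-linked transcripts as a term that comparison called 0 members higher and 21 lower, with an adjusted p of 0.179 for *Tchh*, 0.187 for *Crnn* and 0.325 for *Prr9*, and *Tchh* also lost its call in KO against WT (0.0558). That term rests on replicate 1 of KO and of KO+ZnO NPs, the highest library of its group for each of these genes. The lost calls can therefore not be assigned to Y-linked transcripts. *Crnn* and *Tchhl1* had 2 to 7 counts in each WT library and passed the filter through the libraries where they were high.

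Keratins of the inner root sheath moved with these genes. The 7 keratins *Krt25*, *Krt26*, *Krt27*, *Krt28*, *Krt71*, *Krt72* and *Krt73* summed to 0.948 to 2.38 CPM in WT, to 8171, 11.2 and 2399 CPM in KO, to 699 to 4411 CPM in WT+ZnO NPs and to 6030.0, 4906 and 189 CPM in KO+ZnO NPs, with *Krt26* and *Krt72* at 0 in all WT libraries. Of the 7, 5 were called higher in KO and 7 in WT+ZnO NPs against WT. Hair shaft keratins stood higher too, as 7 of them summed to 0.140 to 0.807 CPM in WT, to 1479, 0.803 and 173 CPM in KO, to 459 to 1536 CPM in WT+ZnO NPs and to 1092, 149 and 32.2 CPM in KO+ZnO NPs, with 1 called higher in KO and 4 in WT+ZnO NPs against WT. The part of both lists in the changes of *Tchh*, *Crnn*, *Prr9* and *Tchhl1* was not tested. In KO+ZnO NPs replicate 2 *Tchhl1* was at 0.353 CPM where *Tchh* was at 1809.8 CPM. Single keratins of the lists were also low in that library, such as *Krt86* at 0.655, *Krt34* at 0.958 and *Krt26* at 3.73 CPM, against 139.9, 94.1 and 88.9 CPM in replicate 1.

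**Figure D5:**
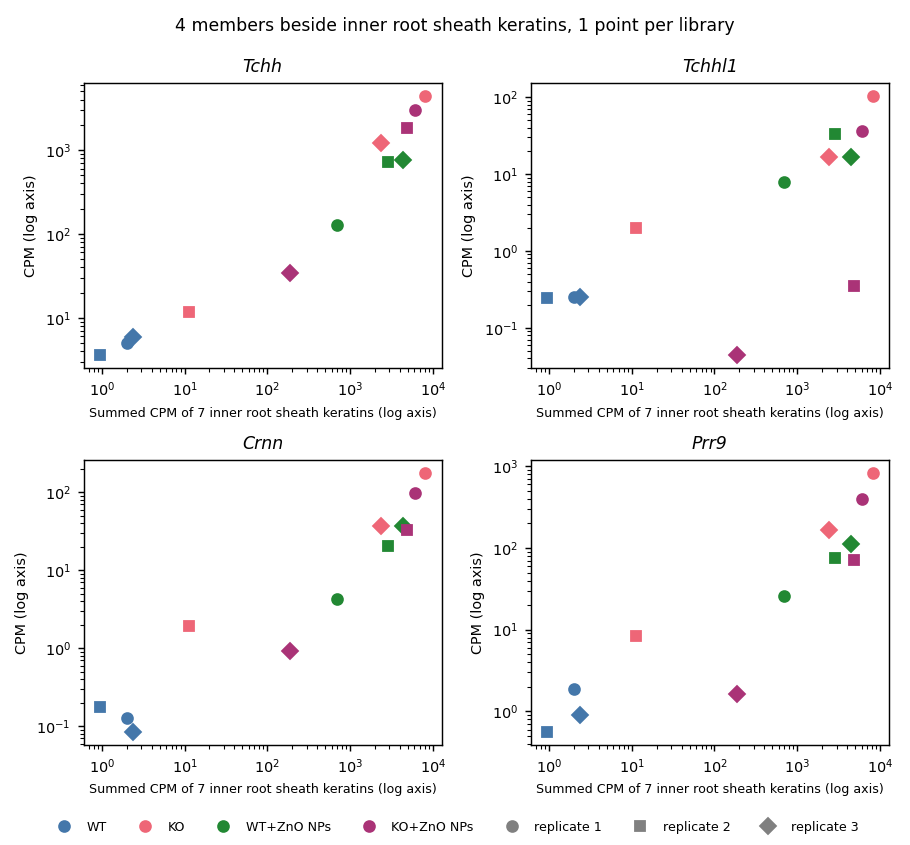
CPM of *Tchh*, *Tchhl1*, *Crnn* and *Prr9* (log axis) beside the summed CPM of 7 inner root sheath keratins (log axis) in each of the 12 libraries, by labelled group. WT lies at the left and KO replicate 1 at the upper right of each panel, and *Tchhl1* is low in KO+ZnO NPs replicates 2 and 3.

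Between the samples marked KO+ZnO NPs and WT+ZnO NPs, and in the interaction of genotype and ZnO NPs, 0 of the 45 tested members were called by edgeR, where 3.28% and 8.68% of all genes were. At an unadjusted p below 0.05 there were 11 members (24.4%, against 24.8% of all genes) and 7 members (15.6%, against 27.4%), shares near and below the background. DESeq2 on all libraries called 4 members in each, where 2287 and 3129 genes in all were called. In the first comparison the 4 were *Lce3f*, *Sprr1b*, *Sprr2a3* and *Sprr2d*, all higher in KO+ZnO NPs. *Sprr1b* came closest by edgeR (4.03 ± 1.03, adjusted p = 0.0558), although replicate 3 of KO+ZnO NPs overlapped WT+ZnO NPs. The difference was 1.68 ± 0.84 for *Lor* (adjusted p = 0.244), 0.86 ± 0.59 for *Ivl* (0.39) and 2.35 ± 0.89 for *Flg* (0.14). Without KO+ZnO NPs replicate 1 that of *Lor* was -0.08 and that of *Ivl* -0.36. The 4 that DESeq2 called in the interaction were *Crnn*, *Prr9*, *Tchh* and *Tchhl1*, for which edgeR gave -7.98 ± 2.54, -7.11 ± 2.39, -7.03 ± 2.35 and -7.99 ± 2.68 with adjusted p from 0.0743 to 0.0866. By edgeR 4 of the 7 inner root sheath keratins and 1 of the 7 hair shaft keratins were called lower in the interaction (medians -11.7 and -11.6). With 0 members called by edgeR, a fall called in 1 genotype and not in the other is not shown to differ between the genotypes.

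Other genes of envelope assembly were counted from lists. Over all genes 20.8% were called higher and 22.1% lower in WT+ZnO NPs against WT, 4.61% and 3.58% in KO against WT, and 6.57% and 8.09% in KO+ZnO NPs against KO. Of 16 cross-linking and scaffold genes, 7 were called lower and 1 higher in WT+ZnO NPs against WT (median -0.85, beside 0.06 over all genes), 1 higher in KO against WT (median 0.51) and 0 in KO+ZnO NPs against KO (median -0.48). The 7 were *Dmkn*, *Krtdap*, *Anxa1*, *Sbsn*, *Dsc1*, *Cdsn* and *Csta1*. *Dmkn*, dermokine, was at 1214 to 1640.0 CPM in WT and at 197 to 256 CPM in WT+ZnO NPs (-2.63 ± 0.42, adjusted p = 0.000813). The cross-linking enzyme *Tgm1* was at 43.6 to 84.2 CPM in WT and at 18.9 to 48.9 CPM in WT+ZnO NPs and was not called (adjusted p = 0.265), and *Tgm3*, a transglutaminase of epidermis and hair follicle, was the 1 called higher (2.33 ± 0.69, adjusted p = 0.0197). In KO against WT the called gene was *Dsp*, desmoplakin (1.14 ± 0.31, adjusted p = 0.0467).

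Of 14 filaggrin processing genes, 6 were called lower and 3 higher in WT+ZnO NPs against WT (median -0.80), the share higher being near the background. The protease genes *Asprv1*, *Klk5*, *Klk7* and *Pcsk6*, the inhibitor gene *Spink5* and the histidase gene *Hal* were lower, and the protease gene *St14* and the deiminase genes *Padi1* and *Padi3* were higher. *Asprv1*, whose product cleaves profilaggrin, was at 709 to 1320.0 CPM in WT and at 94.5 to 199.9 CPM in WT+ZnO NPs (-2.90 ± 0.78, adjusted p = 0.0123). *Padi3*, whose product acts on trichohyalin, was the 1 gene called in KO against WT (median 0.55), at 0.42 to 0.983 CPM in WT and at 254, 0.964 and 55.1 CPM in KO. In KO+ZnO NPs against KO 0 of 14 were called (median -0.85).

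Of 27 regulators of the complex, 14 were called higher and 4 lower in WT+ZnO NPs against WT (median 0.82), where most members were lower. Those higher included *Trp63* (1.62 ± 0.27), the p63 gene of epidermal identity, *Tfap2a* (2.55 ± 0.19), *Vdr* (2.34 ± 0.35), the vitamin D receptor, *Gata3* (1.73 ± 0.23) and *Junb* (1.93 ± 0.52), a subunit of AP-1. *Arnt*, *Cebpa*, *Maf* and *Nfe2l2* were lower. In KO against WT 6 were called higher, among them *Trp63*, *Vdr* and *Gata3*, and 0 lower (median 0.67). In KO+ZnO NPs against KO 1 was called higher, *Cebpb*, and 2 were called lower (median 0.11).

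Of the 12 tested S100 genes of the complex, 4 were called higher and 6 lower in WT+ZnO NPs against WT (median -0.98), 1 higher and 3 lower in KO against WT (median 0.09), and 2 higher and 0 lower in KO+ZnO NPs against KO. The 1 higher in KO was *S100a3*, a hair cuticle gene, at 0.595 to 0.772 CPM in WT and at 186, 0.402 and 38.7 CPM in KO, and those lower were *S100a6*, *S100a10* and *S100a13*. Of 38 other genes within the span of the members, 12 were tested. In WT+ZnO NPs against WT 2 of them were called lower, a share under the background, in KO+ZnO NPs against KO 2 were called lower and in KO against WT 1 was called higher. *2310046K23Rik*, a protein-coding gene, was called in these 3 comparisons, at 61.8 to 127 CPM in WT, 195 to 460.4 in KO, 13.5 to 24.1 in WT+ZnO NPs and 39.7 to 137 CPM in KO+ZnO NPs.

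In KO+ZnO NPs against WT+ZnO NPs, where 2.13% of all genes were called higher, 3 of the 16 cross-linking and scaffold genes were called higher, *Dmkn* (1.91 ± 0.41, adjusted p = 0.0402), *Krtdap* (2.18 ± 0.38, 0.0292) and *Anxa1* (1.29 ± 0.30, 0.0481), as were 1 of the 12 S100 genes (*S100a11*) and 1 of the 12 neighbours (*2310046K23Rik*). None of the filaggrin processing genes or regulators was called. Of the suprabasal keratins *Krt1* was called higher alongside (2.71 ± 0.54, adjusted p = 0.0362), and *Krt10* was not called (2.05 ± 0.50, 0.0514). In the interaction, where 5.08% of all genes were called higher and 3.59% lower, *Krtdap* of the cross-linking and scaffold genes and 4 of the 12 S100 genes (*S100a6*, *S100a10*, *S100a11* and *S100a13*) were called higher. Of the filaggrin processing genes *St14* was called lower, and of the 27 regulators 4 were, *Vdr*, *Gata3*, *Tfap2a* and *Tfap2c*.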

How the data were processed

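RNA of full-thickness dorsal skin was sequenced in 12 libraries, 3 mice in each of 4 groups. The authors deposited 1 table of raw read counts per Ensembl gene. The study's methods name STAR and HTSeq, whereas the submitters' processing notes name HISAT2 2.0.5 and mm10, and the annotation release and the strand setting are not given in the sources used here. Symbols came from GENCODE annotation on GRCm38, which held 52403 of the 52636 genes.

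The deposited counts were fitted with edgeR 4.0.16 in R 4.3.3 (TMM factors, filterByExpr, quasi-likelihood test, 1 coefficient per group, all 12 libraries), with Benjamini-Hochberg adjustment over 18822 genes and a threshold of 0.05. The SE is the log2 fold change divided by the root of F and is approximate. KO and WT+ZnO NPs are both compared with the same WT libraries. Depth was 21076320 to 28867802 counts per library, which limits genes of a few counts. Libraries are separate mice by the study's methods, and the labels tie no replicate number to a shared animal or batch. In KO and KO+ZnO NPs same-numbered libraries deviated together (r = 0.395, 0.13 and 0.143 across genes), so the fit with the replicate block is given beside that comparison. Members shown in every library were *Lor*, *Ivl*, *Flg*, the 2 of highest mean CPM per family and the 5 called members of smallest p per comparison. Members and lists were chosen with earlier results of these data known. Alternatives were other normalizations, filters, terms, DESeq2 1.42.0, fits on fewer groups and the omission of each library. Single values of some regulators are not reported here.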

Additional observations from a re-analysis of the deposited data

How the results depend on the processing

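Over 22 alternative settings, 43 results of single members gave 889 values, of which 781 kept their direction and their side of the threshold, 97 lost the call, 6 gained it and 5 changed sign. The 5 all came without KO+ZnO NPs replicate 1, which gave the lowest log2 value of each when 1 library was left out. *Lor* ran from -0.081 to 2.28 and *Ivl* from -0.36 to 1.27 in KO+ZnO NPs against WT+ZnO NPs, and *Lor* from -0.55 to 1.81, *Ivl* from -0.61 to 1.00 and *Flg* from -0.90 to 1.83 in the interaction. The number of members called in KO against WT was 6, and 1 to 7 when 1 library was left out. In WT+ZnO NPs against WT it was 24, and 12 to 37 with 1 library left out, 11 with at least 10 counts required in every library (25 members tested), and 39 by edgeR and 43 by DESeq2 on the compared groups only. In KO+ZnO NPs against KO it was 10, and 3 to 25 with 1 library left out, 2 with at least 10 counts, 0 by edgeR on the compared groups only and 0 with only the libraries that lack Y-linked transcripts. In KO+ZnO NPs against WT+ZnO NPs it was 0, and 0 to 2 with 1 library left out, 1 (*Sprr1b*) with at least 10 counts, 4 by DESeq2 on all libraries and 4 on the compared groups only (817 genes in all). In the interaction it was 0, and 0 to 2 with 1 library left out and 4 by DESeq2 on all libraries. Beyond the smaller numbers of members or libraries tested, the cause was not tested.

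Of 18 same-numbered pairs of libraries 8 correlated above 0.1 in their deviations from the group means (-0.394 to 0.395). All 3 pairs did so between KO and KO+ZnO NPs, and not all did in any other comparison. With the replicate block, the numbers called were 1 (*Sprr2a3*) in KO against WT, 21 in WT+ZnO NPs against WT, 8 in KO+ZnO NPs against KO, 1 (*Sprr1b*) in KO+ZnO NPs against WT+ZnO NPs and 0 in the interaction. Scaling by library size alone shifted the median of all genes by 0.107 on the log2 scale in WT+ZnO NPs against WT, by -0.152 in KO+ZnO NPs against WT+ZnO NPs and by -0.153 in the interaction, and *Sprr2f* in KO+ZnO NPs against WT+ZnO NPs was the only tested member whose sign changed. The interaction could not be fitted on fewer groups.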

Other observations

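*Sprr2g*, annotated as a polymorphic pseudogene and therefore no member, held 117, 253 and 112 counts in WT, 77, 528 and 58 in KO, 1, 3 and 5 in WT+ZnO NPs and 21, 28 and 2 in KO+ZnO NPs. It was called lower in WT+ZnO NPs against WT (log2 fold change -5.57 ± 1.14, adjusted p = 0.00313) and in KO+ZnO NPs against KO (-3.49 ± 0.97, adjusted p = 0.0373) by edgeR, and KO replicate 2 was its highest library. *Sprr2c-ps*, the other symbol of this family left out as not protein-coding, held 1 count, in WT replicate 2.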
